A study of Homo sapiens with 12 samples.

Results

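AP-1, the activator protein 1, is a family of transcription factors whose subunits pair through a basic leucine zipper (bZIP). Of its genes, 10 were taken by symbol from the deposited count tables: FOS, FOSB, FOSL1, FOSL2, JUN, JUNB, JUND, ATF2, ATF3 and BATF. They were chosen as subunits of the complex, with earlier results of these data known. Of these 10 genes, 9 had a row among the 17598 genes of the MAPK14 knockdown table, where BATF had none, and 10 among the 17146 genes of the MAPK8 and MAPK9 knockdown table. The same 9 genes passed the filter on low counts in each experiment.

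RNA was sequenced in bulk from MIO-M1, a human cell line derived from Müller glia, the main glial cells of the retina, on day 3 after transfection of small interfering RNA (siRNA). One experiment set cells with an siRNA against MAPK14, which encodes the kinase p38-alpha, beside cells with a control siRNA (siMAPK14 and its control set). A separate experiment knocked down MAPK8 together with MAPK9, which encode the kinases JNK1 and JNK2, beside its own control siRNA (siMAPK8_9 and its control set). Each of the 4 groups held 3 of the 12 libraries, and the experiments belong to different batches by their labels. All cells were of 1 cell line with no other alteration named, and since the labels do not tie the 3 libraries of a group to separate cultures, the p-values measure only the spread between these libraries, which may be technical.

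FOS proteins do not pair with themselves and bind DNA as partners of a JUN protein, whereas JUN proteins also pair with each other and with some ATF proteins. p38 kinases phosphorylate ATF2 and, through other kinases, act on factors at the FOS promoter, while JNK kinases are named for the phosphorylation of JUN at its amino terminus. FOS, FOSB, JUN, JUNB and ATF3 are textbook immediate-early or stress-induced genes with short-lived mRNA, and in Müller glia AP-1 genes are known to be induced after retinal injury.

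Levels are given in CPM, counts brought to a common library size by the TMM method within an experiment, and log2 fold changes carry their standard error (SE) and a p-value from edgeR adjusted over all genes of the comparison, with a threshold of 0.05. The targeted genes were lower in the libraries labelled for them: MAPK14 was at 43.6% of its control in siMAPK14, and MAPK8 and MAPK9 were at 35.8% and 35.6% in siMAPK8_9. In siMAPK8_9, MAPK14 was at 66.2% of control (-0.60 ± 0.17, adjusted p = 0.0258). Its libraries held 69.0, 56.7 and 42.7 CPM, against 87.0, 83.3 and 84.4 CPM in the controls. Whether this fall is particular to MAPK14 was not tested. Total counts ranged from 31040067 to 31510571 over the controls, from 14516406 to 19463837 over siMAPK14 and from 9246294 to 20136463 over siMAPK8_9. The mitochondrially encoded genes took 1.56% to 2.03% of counts in the controls, 32.1% to 45.0% in siMAPK14, and 36.9%, 8.93% and 35.0% in siMAPK8_9 replicates 1, 2 and 3. Replicate 2 of siMAPK8_9 stood apart: 13 markers of stratified epithelium summed to 1425 CPM there and to 65.6 to 101 CPM in the other 11 libraries, with the keratin gene KRT14 at 353 CPM against at most 0.649 CPM elsewhere. Values for siMAPK8_9 without this library are given beside the subunits and lists below. Of 13 Müller glia markers, 9 were at or above 1 CPM in each group, VIM among them, while RLBP1 was at 0 in all control libraries.

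The stretch of 250 bases before the gene start (RefSeq, GRCh38.p14) was searched on both strands for 5 motifs, and 3 members held a match. They are shown because JUN and ATF3 carry the same letters, and because JUN and JUND are sister genes with different sites. The motifs were the AP-1 site TGACTCA, the cAMP response element (CRE) TGACGTCA, the variant AP-1 site known from the JUN promoter TGACATCA, the C/EBP-ATF element TGATGNAAN, and the CArG box bound by SRF. Capitals mark the matches, and sequences run 5′ to 3′ on the strand of the gene. The JUN stretch is chr1:58784048-58784297 on the minus strand, the ATF3 stretch, that of the first of 2 starts, is chr1:212565157-212565406 on the plus strand, and the JUND stretch is chr19:18281623-18281872 on the minus strand.
JUN: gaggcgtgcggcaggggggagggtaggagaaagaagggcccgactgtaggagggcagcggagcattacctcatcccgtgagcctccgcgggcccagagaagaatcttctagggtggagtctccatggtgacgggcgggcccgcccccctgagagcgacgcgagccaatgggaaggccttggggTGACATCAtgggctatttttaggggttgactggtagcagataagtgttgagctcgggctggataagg
ATF3: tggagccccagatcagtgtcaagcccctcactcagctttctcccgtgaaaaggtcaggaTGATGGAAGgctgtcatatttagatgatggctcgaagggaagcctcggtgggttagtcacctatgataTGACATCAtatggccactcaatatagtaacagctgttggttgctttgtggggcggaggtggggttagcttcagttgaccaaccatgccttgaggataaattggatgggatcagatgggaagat
JUND: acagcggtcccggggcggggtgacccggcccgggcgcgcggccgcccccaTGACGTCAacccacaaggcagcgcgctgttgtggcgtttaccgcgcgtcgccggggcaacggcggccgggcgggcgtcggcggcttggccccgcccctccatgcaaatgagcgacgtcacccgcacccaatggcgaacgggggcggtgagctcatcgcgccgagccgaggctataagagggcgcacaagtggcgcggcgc

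The site TGACATCA lay 67 to 60 bases before the JUN start, and 123 to 116 bases before this ATF3 start. It is held by 2.37% of 35116 human promoter stretches of the same length. ATF3 also held TGATGGAAG, a C/EBP-ATF element, 191 to 183 bases before its start (3.13% of stretches have such an element), and JUND held a CRE 200 to 193 bases before its start (1.65% of stretches). No 2 of these matches overlapped. The stretches of FOS, FOSB, FOSL2, JUNB, BATF and the other ATF3 start held no match to the 5 motifs, of which the AP-1 site is found in 4.20% of stretches and the CArG box in 1.16%. FOSL1 and ATF2 were not searched. A match is a description of the letters and says nothing of binding in these cells.

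AU-rich pentamers (ATTTA), a feature of many short-lived mRNAs, were counted in the 3′ untranslated region of the longest GENCODE transcript with one. FOS held 5 in 806 bases, or 6.20 per kilobase, a density above that of 94.5% of 18769 genes, and JUNB held 2 in 500 bases (4.00 per kilobase, above 84.4%). The other members ranged from 0 for BATF to 3.39 per kilobase for ATF2, against a median of 1.52 per kilobase over all genes. JUN, JUNB and JUND each consist of 1 exon in that transcript, as do 4.44% of genes.

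In siMAPK14, 5 of the 9 tested subunits rose, 1 fell and 3 did not pass the test. FOSB, ATF3, FOS, JUNB and JUND were the higher genes, although JUND was at -0.14 under total-count scaling, and FOSL2 the lower one. Over all 13183 genes tested in this comparison, 29.4% were called higher and 30.5% lower. The median log2 fold change of the tested subunits was 0.63, against -0.02 over all genes. In siMAPK8_9, 6 of 9 subunits rose, 0 fell and 3 did not pass: ATF3, FOS, JUNB, JUND, FOSL1 and ATF2 were higher. Of the 13124 genes tested there, 26.8% were called higher and 26.1% lower, and the median log2 fold change was 0.95 over the tested subunits and -0.05 over all genes. Scaled by total counts, siMAPK14 had 729 genes called higher and 8357 lower in place of 3876 and 4023, with 3 subunits higher (FOS, FOSB, ATF3) and 4 lower (FOSL1, FOSL2, JUN, ATF2). On that scale siMAPK8_9 had 1124 genes higher and 4968 lower in place of 3514 and 3425, with 3 subunits higher (FOS, JUNB, ATF3) and 0 lower. Fewer cells of a kind and less RNA per cell cannot be told apart in these bulk libraries. The plot of subunit levels by library shows each value behind these counts.

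**Figure D1:**
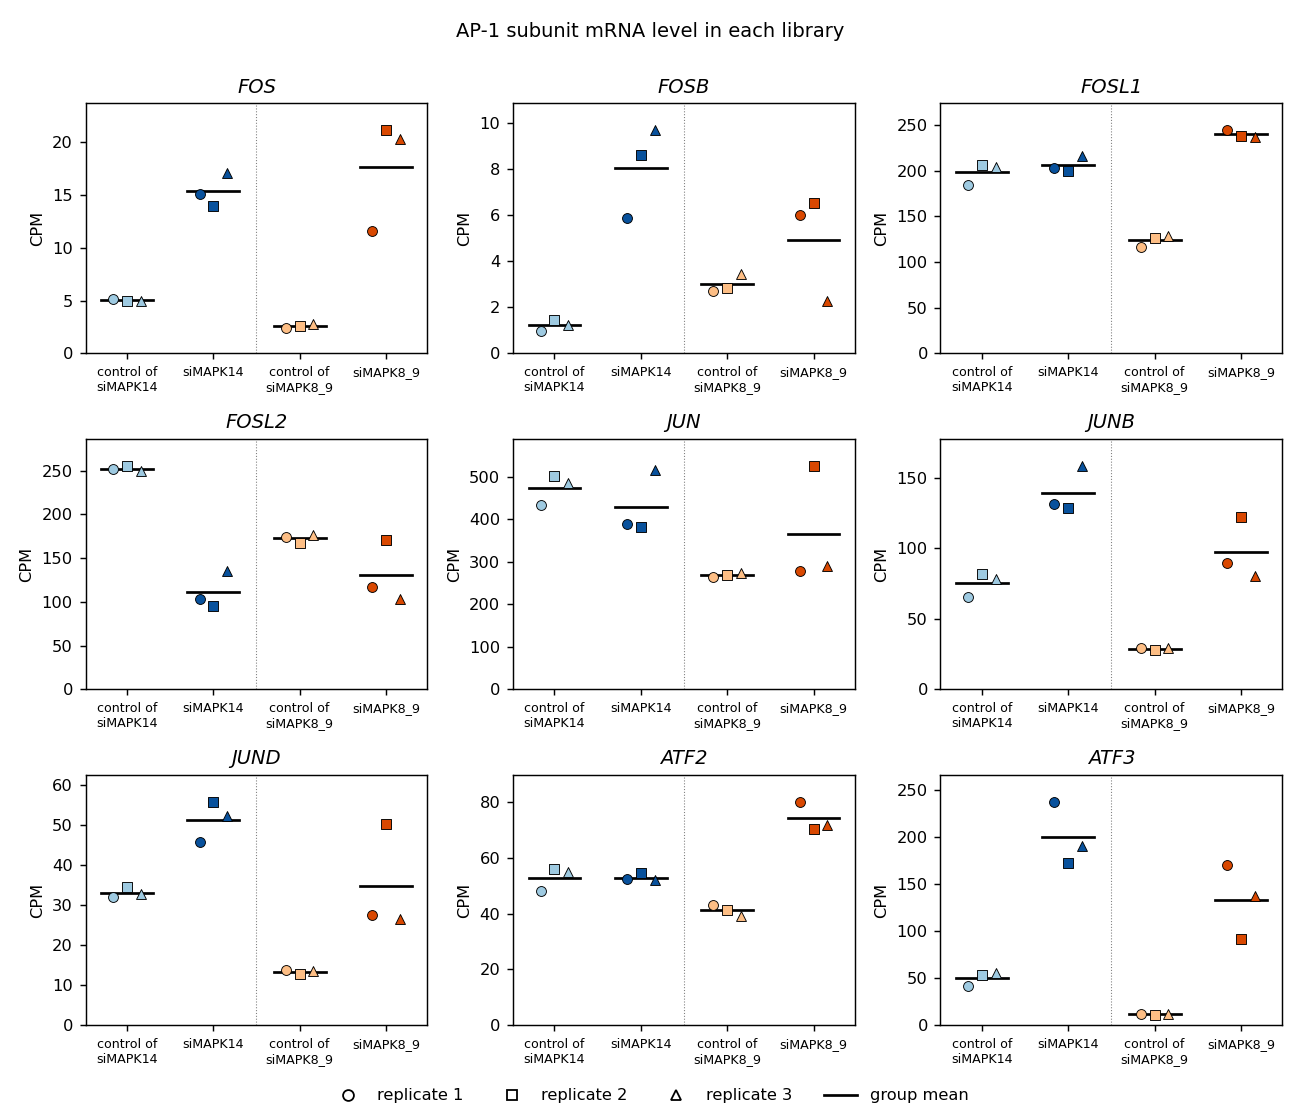
Level of each tested AP-1 subunit (CPM, linear axis from 0) in the 12 libraries. Points are libraries, symbols give the replicate number, bars are group means, and the dotted line parts the experiments, each scaled on its own; FOS and ATF3 lay above their controls in every knockdown library, and in siMAPK8_9 the square of replicate 2 lay apart from the other replicates for JUN, JUND and FOSL2.

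FOS (gene ID 2353; GRCh38.p14 chromosome 14, 75278828 to 75282230), the founding member of its family and the classic immediate-early gene, was low in both control sets. Its level was 5.18, 4.99 and 4.99 CPM in the control libraries of siMAPK14 and 15.1, 13.9 and 17.0 CPM in siMAPK14. In the other experiment it was 2.41, 2.56 and 2.75 CPM in the control libraries and 11.5, 21.1 and 20.3 CPM in siMAPK8_9. Every knockdown library lay above every control library in both experiments, with siMAPK8_9 replicate 1 the lowest of its group. FOS rose 3.04-fold in siMAPK14 (log2 fold change 1.61 ± 0.14, adjusted p = 2.23e-05) and 6.89-fold in siMAPK8_9 (2.78 ± 0.27, adjusted p = 0.000677). Without siMAPK8_9 replicate 2 the log2 fold change was 2.63.

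FOSB (gene ID 2354; chromosome 19, 45467996 to 45475179) encodes a close relative of FOS and was the least abundant tested subunit per kilobase in every group. It was at 0.952, 1.47 and 1.25 CPM in the control libraries of siMAPK14 and at 5.89, 8.63 and 9.70 CPM in siMAPK14, with no overlap. The rise was 6.60-fold (2.72 ± 0.29, adjusted p = 5.77e-05). In the other experiment the control libraries held 2.71, 2.83 and 3.47 CPM and the siMAPK8_9 libraries 5.99, 6.54 and 2.27 CPM. Here the third knockdown library lay below all controls and rested on 14 counts, and the log2 fold change of 0.75 ± 0.39 did not pass (adjusted p = 0.147). Leaving out the library with epithelial transcripts, replicate 2, gave 0.50 (adjusted p = 0.273), whereas leaving out replicate 3 gave 1.06, which passed (adjusted p = 0.00982).

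FOSL1 (gene ID 8061; chromosome 11, 65892049 to 65900545) encodes FRA-1, a FOS relative without the strong activation domain of FOS, and was among the most abundant subunits per length. Its libraries overlapped in the MAPK14 experiment, at 184, 206 and 204 CPM in controls and 203, 200.4 and 216 CPM in siMAPK14. The log2 fold change was 0.06 ± 0.07 (adjusted p = 0.463), but once the length trend was removed it was -0.39 and past the threshold (adjusted p = 0.00195), and it was -0.71 under total-count scaling. In the other experiment FOSL1 was at 117, 127 and 129 CPM in controls and at 245, 238 and 237 CPM in siMAPK8_9, with replicate 2 close to the others. It rose 1.93-fold (0.95 ± 0.10, adjusted p = 0.000782; 0.97 without replicate 2), and by 0.37 on the log2 scale once the length trend was removed (adjusted p = 0.0267). Under total-count scaling the value was 0.27 and did not pass (adjusted p = 0.307).

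FOSL2 (gene ID 2355; chromosome 2, 28392858 to 28417317) encodes FRA-2 and has the longest transcript of the tested members, at 6.10 kb of effective length. It was the subunit that fell: the control libraries held 252, 256 and 249.8 CPM and the siMAPK14 libraries 104, 94.7 and 135 CPM, well apart. It was at 44.2% of control (-1.18 ± 0.12, adjusted p = 4.25e-05), and at -0.65 once the length trend was removed (adjusted p = 0.000648). The controls of the MAPK8 and MAPK9 experiment held 175, 168 and 176 CPM and the siMAPK8_9 libraries 117, 171 and 104 CPM, where replicate 2 lay among the controls. The value of -0.40 ± 0.19 did not pass (adjusted p = 0.118); without siMAPK8_9 replicate 2 it was -0.64 and passed (adjusted p = 0.000113), in the fit of all 12 libraries it was -0.42 (adjusted p = 0.0485), and without the length trend it was 0.31 (adjusted p = 0.0896). FOSL2 overlaps the antisense gene FOSL2-AS1, and with no strand given for the libraries, reads of the pair cannot be told apart.

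JUN (gene ID 3725; chromosome 1, 58780791 to 58784047), the JNK substrate after which the family is named, shared the highest level per kilobase with FOSL1 in both control sets, where their libraries overlapped. Its level was 433, 502 and 486 CPM in the control libraries of siMAPK14 and 389, 382 and 517 CPM in siMAPK14, where replicate 3 lay above all controls. The log2 fold change of -0.14 ± 0.12 did not pass (adjusted p = 0.334); without siMAPK14 replicate 3 it was -0.31 and passed (adjusted p = 0.00745). In the other experiment the controls held 264, 269 and 273 CPM and the siMAPK8_9 libraries 278, 525 and 291 CPM. The groups did not overlap, yet only replicate 2, the library with epithelial transcripts, stood far above the controls. The value was 0.44 ± 0.25 (adjusted p = 0.180), 0.09 without that library (adjusted p = 0.0927), and -0.14 under total-count scaling (adjusted p = 0.807).

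JUNB (gene ID 3726; chromosome 19, 12791486 to 12793315), a JUN relative that is a weaker activator and can oppose JUN, rose in both experiments. It went from 65.5, 81.8 and 77.9 CPM in controls to 131, 128 and 158 CPM in siMAPK14, and from 29.0, 28.0 and 29.1 CPM to 89.8, 122 and 80.0 CPM in siMAPK8_9. All knockdown libraries lay above all controls. The rise was 1.86-fold in siMAPK14 (0.89 ± 0.11, adjusted p = 0.000124) and 3.40-fold in siMAPK8_9 (1.77 ± 0.17, adjusted p = 0.000685), or 1.58 on the log2 scale without siMAPK8_9 replicate 2. Under total-count scaling the siMAPK14 value was 0.13 and did not pass (adjusted p = 0.535). JUNB overlaps HOOK2, and reads of these genes cannot be told apart where they overlap.

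JUND (gene ID 3727; chromosome 19, 18279694 to 18281622), the member of the JUN family known for steady expression in resting cells, was at 32.1, 34.4 and 32.7 CPM in controls and 45.9, 55.9 and 52.2 CPM in siMAPK14. It rose there without overlap (0.63 ± 0.09, adjusted p = 0.000339; 0.29 and adjusted p = 0.0230 without the length trend), but was at -0.14 under total-count scaling (adjusted p = 0.342). Around siMAPK8_9 it was at 13.7, 12.9 and 13.6 CPM in controls and 27.5, 50.2 and 26.6 CPM in siMAPK8_9, with replicate 2 the highest. It rose 2.63-fold (1.39 ± 0.26, adjusted p = 0.00513), and by 1.03 on the log2 scale without that library. Under total-count scaling the value was 0.81 (adjusted p = 0.182).

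ATF3 (gene ID 467; chromosome 1, 212565407 to 212620777), a stress-induced factor that pairs with JUN proteins or with itself, changed most in siMAPK8_9 among the tested subunits. It was at 12.2, 10.3 and 11.3 CPM in controls and at 169.7, 91.2 and 137 CPM in siMAPK8_9. For siMAPK14 it was at 41.9, 52.9 and 54.9 CPM in controls and 237, 173 and 191 CPM in siMAPK14. No library of a knockdown came near its controls, and replicate 2 was the lowest siMAPK8_9 library. The rise was 11.8-fold in siMAPK8_9 (3.55 ± 0.25, adjusted p = 0.000314; 3.78 without replicate 2) and 4.01-fold in siMAPK14 (2.00 ± 0.14, adjusted p = 7.9e-06).

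ATF2 (gene ID 1386; chromosome 2, 175072259 to 175168203), a direct substrate of p38 and JNK that pairs with JUN, did not pass in siMAPK14. Its level was 47.9, 56.0 and 54.8 CPM in controls and 52.3, 54.5 and 52.0 CPM in siMAPK14, within the same range. The log2 fold change was -0.0001 ± 0.08 (adjusted p = 0.999), and 0.28 without the length trend (adjusted p = 0.0243). In siMAPK8_9 it went from 43.2, 41.3 and 39.1 to 80.1, 70.5 and 71.9 CPM, above all controls. It rose 1.80-fold (0.85 ± 0.11, adjusted p = 0.00136), and by 0.90 on the log2 scale without replicate 2; under total-count scaling the value was 0.16 (adjusted p = 0.514). ATF2 overlaps MIR933. BATF (gene ID 10538; chromosome 14, 75522469 to 75546992), an AP-1 partner known from lymphocytes, had 0, 1 and 0 counts in the control libraries of siMAPK8_9 and 0 in every siMAPK8_9 library, where a count of 0 allows up to 0.324 CPM.

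Both knockdowns carried a trend with transcript length, shown in the plot of fold change against length. With genes cut into 5 equal bins by length, the median log2 fold change ran from 0.72 in the bin of shortest transcripts to -0.57 in that of the longest in siMAPK14, and from 0.95 to -0.78 in siMAPK8_9. The tested subunits spanned 1.39 kb (FOSL1) to 6.10 kb (FOSL2), with JUNB at 1.54, JUND at 1.64, ATF3 at 1.65, FOS at 1.81, JUN at 2.96, FOSB at 3.39 and ATF2 at 3.82 kb. With the trend removed, 6 subunits were higher and 2 lower in siMAPK14, and 6 higher and 0 lower in siMAPK8_9. Over all genes, 3190 were then called higher and 2875 lower of 13183 in siMAPK14. In siMAPK8_9 these counts were 2778 and 2145 of 13124. FOS kept log2 fold changes of 1.34 and 2.46, ATF3 1.67 and 3.12, JUNB 0.52 and 1.30. FOSB stood at 2.92 and 1.02, the latter not past the threshold (adjusted p = 0.0708). Under total-count scaling the median gene was at -0.79 in siMAPK14 and -0.71 in siMAPK8_9, so the subunit values given on that scale lie against those medians.

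**Figure D2:**
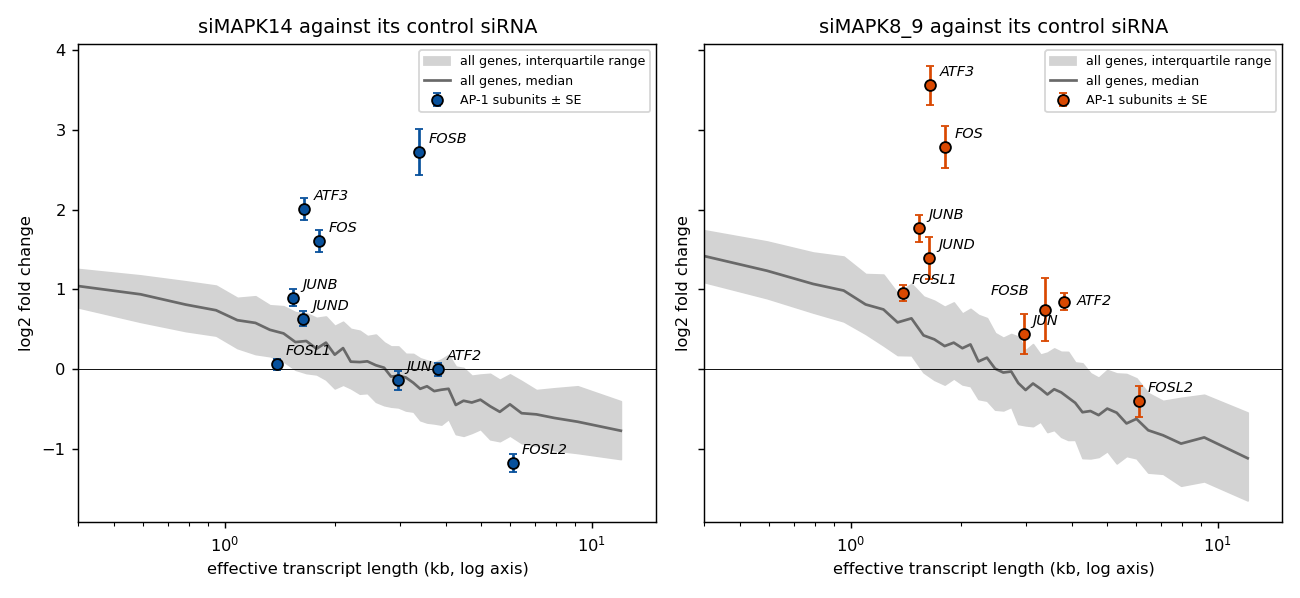
Log2 fold change against effective transcript length (kb, log axis) in each knockdown. The line is the median and the grey band the interquartile range of all genes along the length axis, and points with SE bars are the tested subunits; FOS, FOSB, JUNB and ATF3 lay above the band in siMAPK14, and FOSL1 and FOSL2 below it.

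**Figure D3:**
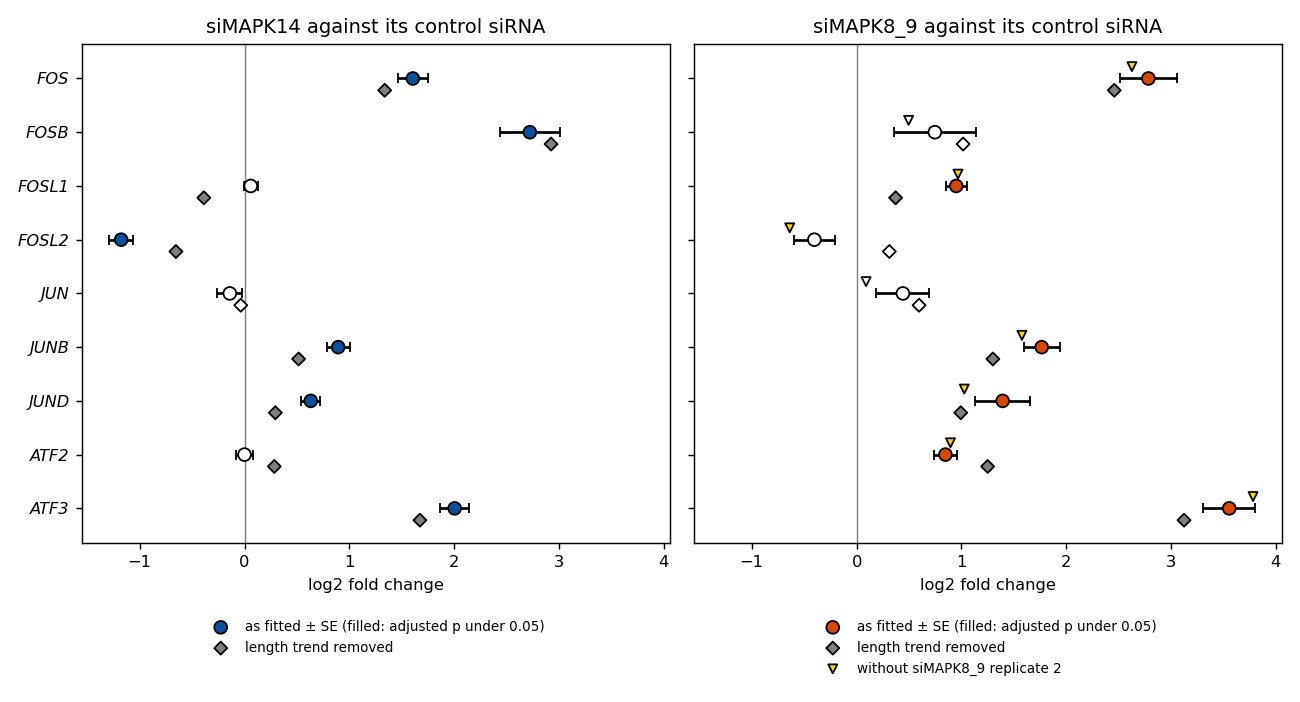
Log2 fold change of the tested subunits in each knockdown as fitted (circles with SE bars), with the length trend removed (diamonds) and, for siMAPK8_9, without replicate 2 (triangles). Filled symbols are past an adjusted p of 0.05; FOS, JUNB, JUND and ATF3 stayed filled on the right of 0 in both panels (JUND was at -0.14 in siMAPK14 under total-count scaling, not plotted), and FOSL2 in siMAPK8_9 changed side with the setting.

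To compare subunits with each other, levels were put on 1 scale over the 12 libraries and divided by effective length. In the control set of siMAPK14, JUN (164 ± 12.5 CPM per kilobase, SD, n = 3) and FOSL1 (147 ± 9.09) came first and their libraries overlapped. JUNB (50.3 ± 5.70), FOSL2 (42.6 ± 0.468), ATF3 (31.1 ± 4.34), JUND (20.8 ± 0.763), ATF2 (14.3 ± 1.17), FOS (2.87 ± 0.060) and FOSB (0.371 ± 0.0786) followed, none overlapping its neighbour. In the control set of siMAPK8_9, JUN (89.8 ± 1.39) and FOSL1 (88.5 ± 4.42) again overlapped at the top, followed by FOSL2 (28.1 ± 0.727), JUNB (18.5 ± 0.387), ATF2 (10.7 ± 0.561), JUND (8.10 ± 0.265), ATF3 (6.76 ± 0.586), FOS (1.41 ± 0.0893) and FOSB (0.877 ± 0.118). So ATF3 stood in place 5 of 9 in one control set and 7 in the other.

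In siMAPK14 the first 3 places were FOSL1 (149.9 ± 6.07), JUN (146 ± 25.8) and ATF3 (122 ± 20.4), each overlapping the next. In siMAPK8_9 the first 4 were FOSL1 (169 ± 2.83), JUN (120.1 ± 46.1), ATF3 (78.5 ± 23.3) and JUNB (61.8 ± 14.1), again overlapping in turn, and FOSL2 (20.9 ± 5.76), JUND (20.8 ± 8.02) and ATF2 (19.0 ± 1.32) overlapped below them. ATF3 was thus in place 3 in both knockdown groups, while FOS and FOSB held the last 2 places in all 4 groups.

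**Figure D4:**
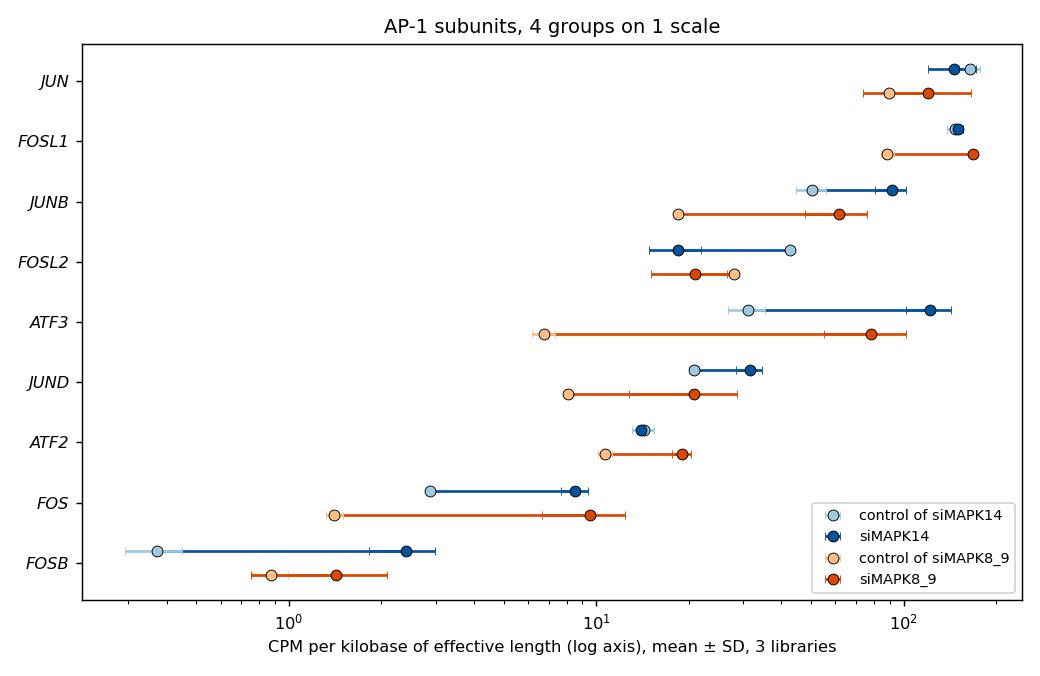
Level of each tested subunit (CPM per kilobase of effective length, log axis, mean ± SD of 3 libraries) in the 4 groups on 1 scale, with a line from each control set to its knockdown. Subunits are ordered by their level in the control set of siMAPK14; the 2 pale points of a subunit are its control sets, 31.1 and 6.76 for ATF3.

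The mixture within the FOS and JUN families also differed from the controls. JUN made up 69.8% ± 0.318 of JUN family mRNA per kilobase in the control set of siMAPK14 and 54.1% ± 2.09 in siMAPK14, and 77.2% ± 0.543 and 58.7% ± 3.11 in the other experiment. JUNB went the other way, from 21.3% ± 0.748 to 34.0% ± 0.791 and from 15.9% ± 0.310 to 31.2% ± 3.48. In siMAPK8_9 replicates 1 and 3 alone, JUN took 55.5% and 58.9% and JUNB 34.6% and 31.3%. Libraries of control and knockdown did not overlap for either share, also with the length trend removed, where JUN went from 66.6% to 58.4% and from 72.8% to 63.6%. The level of JUN itself did not pass the test in either knockdown. Summed over JUN, JUNB and JUND, the level was 235 ± 18.8 and 269 ± 37.1 CPM per kilobase in the MAPK14 experiment, and 116 ± 1.44 and 203 ± 67.8 in the other, where siMAPK8_9 replicate 2 was at 281 and replicates 1 and 3 at 165 and 162.

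In the FOS family FOSL1 dominated all 4 groups. It took 76.2% ± 1.13 of the family in the control set and 83.7% ± 1.60 in siMAPK14, and 74.4% ± 1.10 and 84.2% ± 3.29 in the MAPK8 and MAPK9 experiment. With the length trend removed the order turned, to 80.8% and 79.4%, whose libraries overlapped, and to 82.4% and 79.8%. FOSL2 went from 22.1% ± 1.05 to 10.2% ± 1.31 and from 23.6% ± 1.13 to 10.4% ± 2.48 (17.6% to 14.1% and 15.8% to 14.5% with the trend removed). FOS rose in share from 1.49% ± 0.105 to 4.76% ± 0.221 and from 1.18% ± 0.0332 to 4.74% ± 1.39, and kept these sizes without the trend (4.81% and 4.86%). Without replicate 2, the siMAPK8_9 libraries held 86.6% and 85.6% FOSL1, 9.41% and 8.49% FOSL2, and 3.13% and 5.61% FOS. FOSB stayed under 2% of the family in every group mean. No p is given for shares, since an exact permutation test of 3 against 3 cannot go below 0.1.

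**Figure D5:**
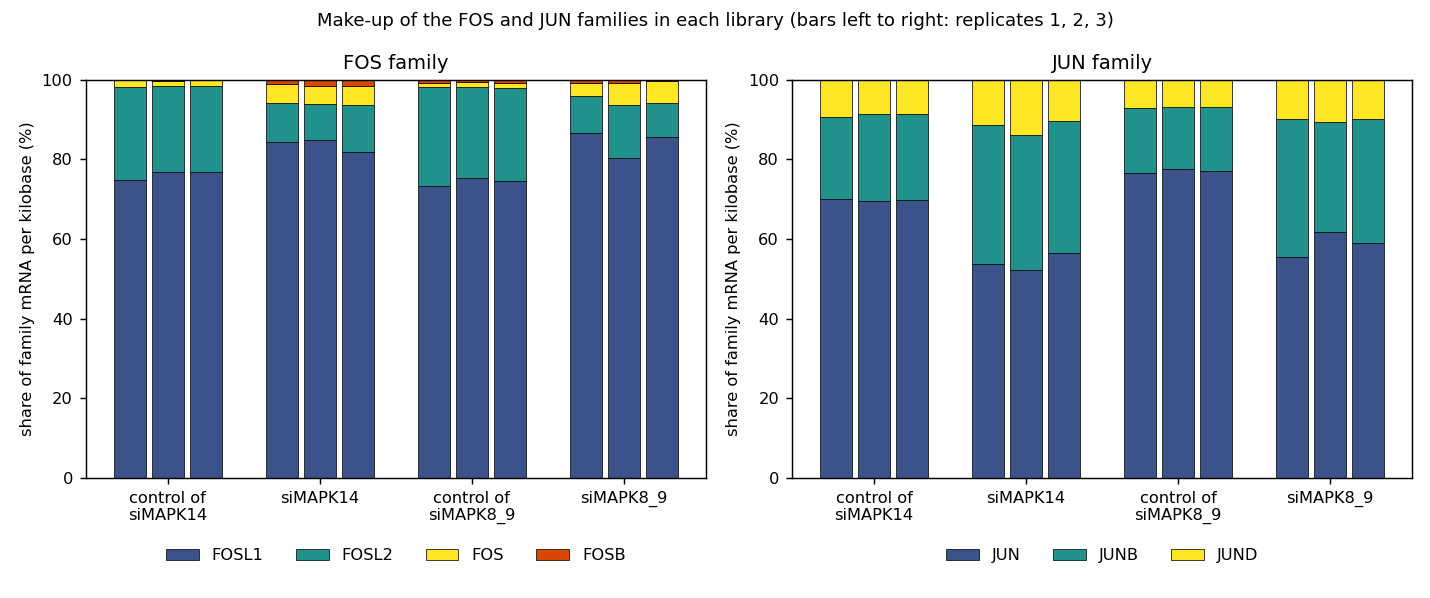
Share of each gene in FOS family mRNA (left) and JUN family mRNA (right), in percent of the summed CPM per kilobase, 1 bar per library. JUNB took 33.3% to 34.9% of its family in siMAPK14 against 20.5% to 21.9% in the controls, and FOSL1 was the main segment of the FOS family in each of the 12 libraries.

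The 2 control sets were not alike. Between them, 8 of 9 tested subunits were lower in the control set of siMAPK8_9 and 1, FOSB, was higher, where 11.3% of 13648 genes were called lower and 11.0% higher. ATF3 was lower by the most, at 21.7% of its level in the other control set (log2 difference -2.20 ± 0.21, adjusted p = 2.28e-05), followed by JUNB (-1.44 ± 0.15), JUND (-1.36 ± 0.20), FOS (-1.03 ± 0.21), JUN (-0.87 ± 0.21), FOSL1 (-0.73 ± 0.08), FOSL2 (-0.60 ± 0.17) and ATF2 (-0.42 ± 0.09). FOSB was at 1.24 ± 0.35. The control libraries of the experiments did not overlap for any of the 9 subunits, as for 75.3% of all genes tested. Under total-count scaling FOSL1, JUNB, JUND and ATF3 remained past the threshold. The calls for FOSB and FOSL2 ended when any single control library was left out (adjusted p up to 0.104 and 0.0851). Control set and batch cannot be told apart.

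The knockdown groups were set side by side on the same scale. Their libraries, which varied more within a group than the controls (JUN had an SD of 46.1 CPM per kilobase in siMAPK8_9 and 1.39 in its control set), overlapped for 5 of the 9 subunits (FOS, FOSB, FOSL2, JUN and JUND) and not for 4, where 19.7% of all genes did not overlap. FOSL1 and ATF2 were higher in siMAPK8_9 than in siMAPK14, by 0.17 and 0.44 in log2 ratio of means, and JUNB and ATF3 lower, at -0.56 and -0.64. This comparison was added after the values had been seen and carries no test.

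Whether the knockdown effects differ was tested in 1 fit, with the effect of siMAPK8_9 subtracted from that of siMAPK14. The effect on 6 of the 9 subunits was lower in siMAPK14 and on 1 it was higher, against 9.02% of genes called lower and 6.87% called higher. Over all genes 938 were called higher and 1231 lower, or 185 and 845 under total-count scaling. The differences were -1.56 ± 0.28 for ATF3 (adjusted p = 0.00328), -1.19 ± 0.29 for FOS (0.0169), -0.90 ± 0.12 for FOSL1 (0.000405), -0.89 ± 0.21 for JUNB (0.0141), -0.86 ± 0.13 for ATF2 (0.00134), -0.79 ± 0.24 for FOSL2 (0.0427) and 1.96 ± 0.49 for FOSB (0.0189). JUND (-0.78 ± 0.28, adjusted p = 0.0785) and JUN (-0.59 ± 0.30, adjusted p = 0.196) did not pass, although JUND passed with DESeq2 (adjusted p = 0.0411) and limma-voom (0.0273). This test uses the control libraries that differ above, so the control set difference is a term of each value. Without siMAPK8_9 replicate 2 the same 6 subunits were lower and FOSB higher, where 2398 of 14052 genes were called lower and 2807 higher. In that fit FOSL2 was at -0.48 (adjusted p = 0.0253), JUND at -0.34 (0.0717) and JUN at -0.18 (0.372). The others were -1.72 for ATF3, -0.97 for FOS, -0.86 for FOSL1, -0.63 for JUNB, -0.84 for ATF2 and 2.29 for FOSB. FOSL2 lost its call in 8 of 12 fits that left out 1 library. FOSB lost it without control replicate 1 or 3 of siMAPK14 or control replicate 3 of siMAPK8_9, and FOS without control replicate 1 of siMAPK8_9 (adjusted p = 0.0512). Under total-count scaling FOSL1, ATF2 and ATF3 were the subunits that passed.

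Other genes were read from 4 lists, also chosen with earlier results of these data known. The list counts stand against 29.4% of all genes higher and 30.5% lower in siMAPK14, and 26.8% and 26.1% in siMAPK8_9. Without siMAPK8_9 replicate 2, 4514 genes were called higher and 5040 lower of 13444. With the length trend removed the counts were 3190 and 2875 of 13183 in siMAPK14, and 2778 and 2145 of 13124 in siMAPK8_9. Of 27 other bZIP genes that can pair with FOS, JUN or ATF proteins, 25 were tested. In siMAPK14 12 of them rose and 6 fell (median log2 fold change 0.34). For siMAPK8_9 the counts were 11 higher and 3 lower (0.54), or 13 and 6 without replicate 2. DDIT3, the stress factor CHOP, went from 117 ± 8.65 to 359 ± 19.2 CPM in siMAPK14 (1.62 ± 0.07, adjusted p = 2.78e-06) and from 23.6 ± 0.0891 to 369 ± 61.8 CPM in siMAPK8_9 (3.96 ± 0.16, adjusted p = 9.69e-05). ATF4, the main factor of the integrated stress response, rose by 0.99 ± 0.08 and 2.27 ± 0.13. Without the length trend DDIT3 stood at 0.76 and 2.80 and ATF4 at 0.41 and 1.49, all past the threshold. DDIT3 also differed between the control sets (-2.36 ± 0.12), and so did ATF4 (-1.08 ± 0.10) and MAFF, a small MAF factor (-2.29 ± 0.17), as ATF3 did. In the difference of the effects DDIT3 stood at -2.36 ± 0.17 and MAFF at -2.56 ± 0.23.

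Of 30 genes known as AP-1 targets, 26 were tested, with 9 higher and 8 lower in siMAPK14 (median 0.10), shares near those of all genes (29.4% and 30.5%). For siMAPK8_9 the counts were 8 higher and 5 lower (0.03), or 9 and 12 without replicate 2. The fit without that library called 4514 genes higher and 5040 lower of 13444. SPP1, the matrix protein osteopontin, rose by 1.65 ± 0.12 in siMAPK14, and HMOX1, a haem-degrading enzyme, by 1.19 ± 0.09 (1.14 and 0.68 without the length trend). CXCL8, a chemokine, went from 115 ± 5.11 to 1633 ± 1123 CPM in siMAPK8_9 (3.83 ± 0.50, adjusted p = 0.00156; 3.11 without replicate 2). TIMP1, an inhibitor of matrix proteases, rose there by 1.40 ± 0.13, but stood at 0.14 with the length trend removed (adjusted p = 0.515). The effects differed for SPHK1 (1.17 ± 0.17) and for MMP3 (3.82 ± 0.60), a matrix protease, and CXCL8 differed between the control sets (-3.16 ± 0.41).

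Of 16 transcription factors that act on the FOS and JUN promoters, all tested, 0 rose and 9 fell in siMAPK14 (median -0.33; 29.4% and 30.5% of all genes), but 2 rose and 3 fell with the length trend removed. In siMAPK8_9, 2 rose and 6 fell (-0.39), or 5 and 2 with the trend removed and 4 and 10 without replicate 2. Over all genes, those fits called 2778 higher and 2145 lower of 13124, and 4514 and 5040 of 13444. ELK3, an ETS factor that partners SRF, fell by 0.74 in siMAPK14 (adjusted p = 2.78e-05), and MRTFB, a coactivator of SRF, fell by 1.20 in siMAPK14 (-0.57 without the trend) and by 1.35 in siMAPK8_9, the latter not past the threshold with the trend removed (-0.45, adjusted p = 0.0654). MEF2C fell by 1.37 in siMAPK8_9 (-0.67 without the trend), and was higher in the control set of siMAPK8_9 than in the other (1.66 ± 0.24). Of 13 genes of AP-1 mRNA decay and protein turnover, 5 were higher and 4 lower in siMAPK14 (0.19), against 6 and 3 in siMAPK8_9 (0.41), or 9 and 3 without replicate 2; the siMAPK14 counts are near the all-gene shares of 29.4% and 30.5%. ZFP36, tristetraprolin, which promotes decay of AU-rich mRNAs, went from 12.3 ± 0.916 to 64.7 ± 1.23 CPM in siMAPK8_9 (2.39 ± 0.12, adjusted p = 0.000134), and its relative ZFP36L1 rose by 1.37 ± 0.20. ZFP36 and ZFP36L1 were also lower in the control set of siMAPK8_9 than in the other (-1.94 ± 0.15 and -1.35 ± 0.17). In siMAPK14, ZFP36L2 fell by 0.78 and COPS5, a subunit of the COP9 signalosome known to bind JUN, rose by 1.18 ± 0.07 (0.53 without the trend).

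The genes most like a subunit over the 12 libraries were sought by the root mean square (RMS) difference of centred log2 CPM among 9139 genes with a mean of at least 10 CPM. For ATF3, whose own standard deviation was 1.58, these were DDIT3 (RMS 0.280) and MT1E (0.314). For FOS they were RRAD (0.261) and EIF1 (0.292), for FOSL1 IRF1 (0.0920) and GPT2 (0.0928), and for JUN TNFRSF10B (0.103) and PHC2 (0.104). The standard deviations of FOS, FOSL1 and JUN were 1.06, 0.361 and 0.407, so RMS values of different subunits are not directly comparable. The 12 libraries share the depth, length and batch traits given above.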

How the data were processed

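Bulk RNA was measured in 12 libraries of 4 groups. The authors deposited 1 table per experiment of expected counts (RSEM-type estimated counts per gene, not normalized) with FPKM values deposited beside them. Per the submitters' processing notes the tools were RSEM 1.3.1, DESeq2 1.4.5 and Bowtie2 2.3.4.3, on build GRCh38.p14, with no role given for each; annotation, filters and strand are not given in the sources used here. Another 24 columns of per-library values were left unused. The members and lists were chosen with earlier results of these data known.

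Counts were rounded and fitted in R 4.3.3 with edgeR 4.0.16 (filterByExpr with a minimum count of 10 and total of 15, TMM, robust quasi-likelihood F-test), each experiment alone, with Benjamini-Hochberg adjustment over all genes. The difference of effects, the control sets and levels on 1 scale come from 1 fit of 12 libraries. Effective length is count over FPKM and total, for 14034 genes; the authors' FPKM served only for this. The length trend is a lowess curve (span 0.3) removed within each library as an offset. By total counts without TMM scaling, 1 count equals 0.0317 to 0.108 CPM. These values do not hold for the TMM-scaled levels, where 14 counts of FOSB were 2.27 CPM in siMAPK8_9 replicate 3. Intervals from counts cover counting error only. Libraries with the same replicate number did not deviate together, but control libraries differed too little for this to show whether the numbers pair them.

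Alternatives were RLE factors, total counts, omitting the 13 mitochondrial genes, no filter or one at a mean of 1 CPM, limma-voom (limma 3.58.1), DESeq2 1.42.0, the replicate number as a block, 1 fit of all libraries and each library left out in turn; family shares without the length trend and the comparison of knockdown groups were added after the data were seen. The pipeline was run on simulated data drawn from control proportions. These held no length trend and no raised mitochondrial share, so the run says nothing of those traits. Named genes are all members, the targeted genes, per list and comparison the 2 genes past the threshold with the smallest adjusted p and at least 10 CPM, and the 2 genes most like FOS, ATF3, FOSL1 and JUN. KRT14, VIM and RLBP1 were named after their values were seen. Plots used matplotlib 3.10.9 under Python 3.11.15.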

Additional observations from a re-analysis of the deposited data

Results flagged for a closer look

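The knockdown effects differed by a test of the difference itself for 7 subunits (edgeR, 12 libraries, siMAPK14 effect minus siMAPK8_9 effect). Over all genes, 9.02% were called lower and 6.87% higher. The log2 differences were -1.56 for ATF3, -1.19 for FOS, -0.90 for FOSL1, -0.89 for JUNB, -0.86 for ATF2, -0.79 for FOSL2 and 1.96 for FOSB. The control sets also differed for each of these genes. Each value is close to the control set difference less the log2 ratio of siMAPK8_9 over siMAPK14 libraries. In the same order of genes, the control set differences were -2.20, -1.03, -0.73, -1.44, -0.42, -0.60 and 1.24. The knockdown group ratios were -0.64, 0.16, 0.17, -0.56, 0.44, 0.18 and -0.76. What lies behind either term was not tested. With 3 libraries a group, no test for single outlying values was run.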

How the results depend on the processing

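FOS, JUNB and ATF3 were higher in siMAPK8_9, and FOS, FOSB and ATF3 in siMAPK14, past the threshold under every alternative run. Total-count scaling called 3 subunits in siMAPK8_9 in place of 6, 3 in the difference in place of 7, and 4 between the control sets in place of 9, and 1030 genes in the difference and 1356 between the control sets in place of 2169 and 3045. Limma-voom called 5213 genes between the control sets. In siMAPK14, FOSL1 changed sign under total counts (-0.71), with the length trend removed (-0.39) and with the block and the trend removed together (-0.39), ATF2 went from -0.0001 to 0.28 and 0.29 in the last of these settings, and JUND was at -0.14 under total counts. With 1 library left out, all-gene counts ran from 4509 to 9554 in siMAPK8_9, from 1266 to 5205 in the difference and from 1653 to 5836 between the control sets, each highest without siMAPK8_9 replicate 2. The cause of these shifts was not tested. Of all single-gene alternatives, 643 kept their call, 43 lost and 10 gained a call. The 643 include turns of sign where neither fit passed, such as those of FOSL2 and JUN in siMAPK8_9. In 6, those named, the sign reversed with a call in either fit. The replicate number as a block called 1179 genes in the difference, where FOSL2 lost its call (adjusted p = 0.0683), as did FOSB between the control sets (0.0517). After group means were taken off, same-numbered libraries correlated at -0.026 to 0.030. Libraries of a control set differed little from each other, so this cannot show whether the numbers pair them. Depth limits FOSB and BATF most: FOSB rested on 14 counts in 1 library.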
